A study of Homo sapiens with 6 samples.

Results

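Replication-dependent histone genes were lower in MIA-PaCa2 cells transfected with the H19 siRNA siH19-2 than in those that received a nonsense siRNA (NC). These genes encode the histones H1, H2A, H2B, H3 and H4 that package newly copied DNA. They were chosen by symbol, as every named row of the authors' table whose name joins 1 of the clusters HIST1 to HIST4 to a histone class, without 3 rows marked as pseudogenes by the letters PS. The rule found 64 of 39261 named probe sets, with 6 genes of H1, 15 of H2A, 18 of H2B, 12 of H3 and 13 of H4. HIST1 on chromosome 6 holds 55 of them, HIST2 and HIST3 on chromosome 1 hold 4 each, and HIST4 on chromosome 12 holds 1. HIST2H3DP1 and HIST3H2BA met the rule although RefSeq annotates both as pseudogenes. Of the 64 genes, 35 fell and none rose at an adjusted p under 0.05, and the median fold change on the log2 scale was -0.38, which corresponds to 76.8% of the signal in NC.

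The siH19-2 group and the NC group held 3 arrays each, and both were of MIA-PaCa2, a permanent human cell line of pancreatic ductal adenocarcinoma (PDAC). All cells were lipotransfected, 1 group with siH19-2, an siRNA directed at the long noncoding RNA H19, and the other with a siRNA that has no target. RNA was isolated 24 h later, and the dose is given as 50 nM in the methods but as 20 µg per siRNA in the labels. The comparison rests on 1 cell line and 1 siRNA, and arrays of siH19-1 were not analysed here. The sources used here do not state whether the arrays came from separate cultures, and if they did not, the spread behind the p-values is that between arrays alone and may be technical. The Clariom D array combines the probes of a gene into 1 log2 signal, which cannot rank the amounts of different RNAs. H19 itself had log2 signals of 7.10, 7.09 and 7.13 in siH19-2 arrays, against 7.36, 7.43 and 7.42 in NC arrays. It fell by 0.30 (adjusted p = 0.0121, lost in 4 of 6 fits with 1 array left out), to 81.3% of the NC signal. No siH19-2 array reached an NC array (p = 0.1 in a two-sided exact permutation test, which cannot go lower with 3 arrays a group). Markers of the cell line were mixed. The keratin genes KRT8 and KRT18 were above the median log2 signal of 6.16 with means of 9.63 and 9.33 in siH19-2 arrays and 9.74 and 9.43 in NC arrays. The epithelial genes EPCAM and CDH1 were below that median, with means of 4.52 and 5.53 in siH19-2 arrays and 4.52 and 5.49 in NC arrays. KRT19, a further keratin gene, fell by 0.40 (adjusted p = 0.0323, lost in 5 of 6 fits with 1 array left out), and VIM, a filament gene of mesenchymal cells, averaged 13.1 in both groups. None of 15 markers of leukocytes, endothelium, fibroblasts, acinar cells and islets passed limma's test or the methods' t-test (1 was higher and 0 lower at an unadjusted p under 0.05), and their summed log2 signal ran between 86.9 and 87.3 in siH19-2 arrays and between 86.5 and 86.8 in NC arrays.

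Most histone genes of animal cells are transcribed mainly in S phase, when DNA is copied. Their transcripts carry no poly(A) tail but end in a short stem-loop, which the stem-loop binding protein (SLBP) holds and which the U7 small nuclear ribonucleoprotein helps to cut. The genes lie in dense clusters, where NPAT gathers in nuclear bodies and acts as their coactivator. In RNA from whole cultures, fewer cells in S phase and less histone RNA per cell cannot be told apart.

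Short elements before the start of transcription are known for the histone classes, and 6 promoters are shown so that these can be read beside the fold changes. HIST1H1D, HIST1H2BL and HIST1H4D had the largest called falls of their classes. HIST1H3B, which missed the threshold, had the lowest fold change among the H3 genes with an entry in the RefSeq promoter table, HIST1H2BG shares its promoter region with HIST1H2AE, and HIST1H4H kept its call whichever array was left out. Each stretch runs from 140 bases before the start to 10 bases after it, 5′ to 3′ on the strand of the gene, from RefSeq on GRCh38.p14. Capitals mark the TATA box (TATAAA or TATATA), the CCAAT box (CCAAT), the octamer (ATTTGCAT), the AC box of H1 genes (AAACACA) and the core of the H4 element (GGTCCG), each searched on both strands, where overlapping matches were kept.
HIST1H1D (gene ID 3007), chr6:26234978-26235127, minus strand: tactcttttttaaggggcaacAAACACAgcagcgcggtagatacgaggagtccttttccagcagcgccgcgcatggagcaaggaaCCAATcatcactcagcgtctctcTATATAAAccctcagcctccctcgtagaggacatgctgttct
HIST1H2BG (gene ID 8339), chr6:26216679-26216828, minus strand: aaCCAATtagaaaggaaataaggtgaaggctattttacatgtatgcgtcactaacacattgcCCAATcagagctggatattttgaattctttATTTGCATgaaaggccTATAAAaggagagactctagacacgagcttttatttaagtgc
HIST1H2BL (gene ID 8340), chr6:27807920-27808069, minus strand: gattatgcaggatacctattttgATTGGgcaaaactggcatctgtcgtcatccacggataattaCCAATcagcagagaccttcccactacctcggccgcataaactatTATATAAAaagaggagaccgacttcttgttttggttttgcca
HIST1H3B (gene ID 8358), chr6:26032090-26032239, minus strand: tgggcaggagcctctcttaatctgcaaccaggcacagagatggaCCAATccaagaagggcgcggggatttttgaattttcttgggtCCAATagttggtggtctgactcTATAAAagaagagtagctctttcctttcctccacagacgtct
HIST1H4D (gene ID 8360), chr6:26189103-26189252, minus strand: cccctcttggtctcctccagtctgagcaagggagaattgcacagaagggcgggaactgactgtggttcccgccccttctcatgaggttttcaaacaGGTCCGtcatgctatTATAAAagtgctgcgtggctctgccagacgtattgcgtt
HIST1H4H (gene ID 8365), chr6:26285525-26285674, minus strand: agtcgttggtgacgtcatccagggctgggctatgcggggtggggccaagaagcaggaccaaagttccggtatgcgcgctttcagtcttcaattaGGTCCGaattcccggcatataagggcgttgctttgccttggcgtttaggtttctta

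The promoter elements followed the histone class. Windows of 250 bases before to 50 bases after the start were on hand for 57 of the 64 genes and for 27305 genes in all. For 11 pairs of H2A and H2B genes the starts lay 194 to 248 bases apart, head to head. The windows of such a pair overlapped, and elements were searched on both strands. The same element could therefore be counted for both genes, so the counts for H2A and H2B are not of separate elements. A TATA box stood in 44 of the 57 windows (77.2%), against 16.5% of all genes. The CCAAT box was found in every window of H1, H2A, H2B and H3, with 6, 14, 17 and 9 genes, but in 3 of 11 windows of H4, against 39.7% of all genes. The octamer, a binding site of the factor POU2F1, was found in 11 of 14 windows of H2A and 13 of 17 of H2B, against 2.19% of all genes. Among H3 genes the octamer was found in HIST1H3D alone, and no window of H1 or H4 held it. The AC box stood in all 6 windows of H1, against 6.94% of all genes, and outside H1 in that of HIST2H2AC alone. The H4 core, which the factor HINFP is known to bind, was found in 10 of 11 windows of H4, against 13.4% of all genes. Fold changes were set beside the octamer. In each overlapping pair both genes had the octamer or both lacked it, so the genes compared are not independent. The 24 genes of H2A and H2B with an octamer had a median of -0.40, and 14 of them fell, whereas the 7 without it had a median of -0.43, and 4 of them fell.

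Falls were found in all 5 classes, as the heat map of all 64 genes shows. A fold change below 0 was measured for 63 of the 64 genes, with HIST1H4J as the exception, and for 17410 of all 39261 transcripts. The median over all transcripts was 0.016. The fold changes of the histone genes ran between -0.81 and 0.32, and the middle part of them between -0.48 and -0.29 (quartiles). Of all 39261 transcripts, 2.63% fell and 2.64% rose at the same threshold, whereas 35 of the 64 histone genes fell and 0 rose in limma. By the methods' t-test with the same adjustment 22 of the histone genes were lower and 0 higher, against 869 lower (2.21%) and 1320 higher of all transcripts. At an unadjusted p under 0.05, 53 histone genes were lower and 0 higher, and for this p no share over all transcripts is given. In 53 histone genes every siH19-2 array was below every NC array, and this was so for 9.98% of all transcripts. The threshold divided neighbours closely, since HIST1H4F had an adjusted p of 0.0490 and HIST1H2BH one of 0.0503. None fell by more than 1 on the log2 scale. A fall larger than the median of the histone genes was found in 839 of all transcripts (2.14%).

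**Figure D1:**
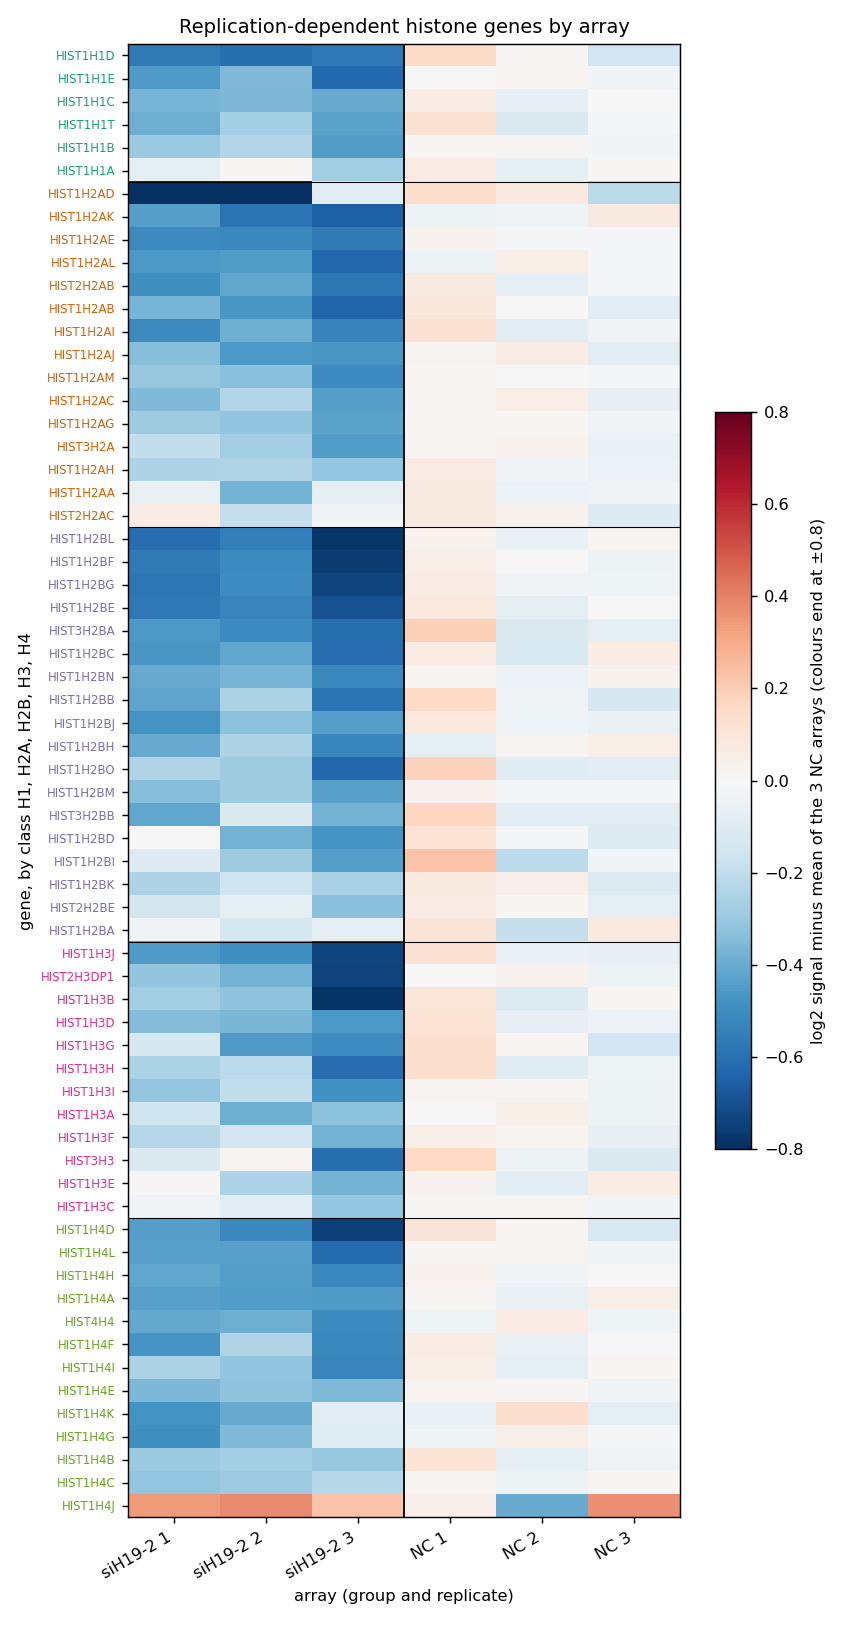
Log2 signal of each of the 64 histone genes in each array, as the difference from the mean of the 3 NC arrays, with siH19-2 arrays on the left, NC arrays on the right and the genes ordered by class and fold change. Blue is below the NC mean, and siH19-2 replicate 3 had the lowest siH19-2 value in 52 of the 64 genes.

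The arrays of a group did not carry the decrease equally. Over the 64 genes, the median difference from the NC mean was -0.36, -0.34 and -0.48 on the log2 scale in siH19-2 replicates 1, 2 and 3, against 0.06, -0.02 and -0.03 in NC replicates 1, 2 and 3. Thus every siH19-2 array was below every NC array, and siH19-2 replicate 3 was the lowest. It had the lowest value of its group in 81.3% of the histone genes, compared with 36.9% of all transcripts. NC replicate 1 had the highest value of its group in 73.4% of the histone genes, compared with 32.2% of all transcripts. Without siH19-2 replicate 1, 2 or 3, the number of histone genes that fell was 14, 20 and 25, and without NC replicate 1, 2 or 3 it was 7, 10 and 7. Calls were lost over all transcripts as well, of which 2.63% fell with all arrays. Without siH19-2 replicate 1, 2 or 3 that share was 1.06%, 1.2% and 1.65%, and without NC replicate 1, 2 or 3 it was 0.744%, 0.838% and 0.869%. The median fold change of the histone genes stayed between -0.41 and -0.33 in these fits. HIST1H2AE, HIST1H2BL, HIST1H4A, HIST1H4E and HIST1H4H kept their calls in all 6 of them. HIST1H2AB, HIST1H2AC, HIST1H2AH, HIST1H3D, HIST1H4B, HIST1H4D and HIST3H2BA lost theirs in each. When each array was centred on its small nucleolar RNAs, the median of all transcripts moved to 0.12 and that of the histone genes to -0.27, and 9 histone genes fell. Over all transcripts that scaling turned the split of calls to 207 lower and 528 higher, against 1032 lower and 1035 higher as deposited.

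How well a fall was measured varied with the signal of the probe set. Of the 40 histone genes with a mean log2 signal above 8, 31 fell, and in all 40 every siH19-2 array was below every NC array. Among all 7923 transcripts above that signal, 7.91% fell and 22.3% were without overlap in this direction. The 40 genes had a median fold change of -0.44. Of the 24 genes at or below a signal of 8, 4 fell, and their median was -0.28. The brighter genes had the smaller standard errors, with a median of 0.064, compared with 0.091 for the dimmer ones.

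**Figure D2:**
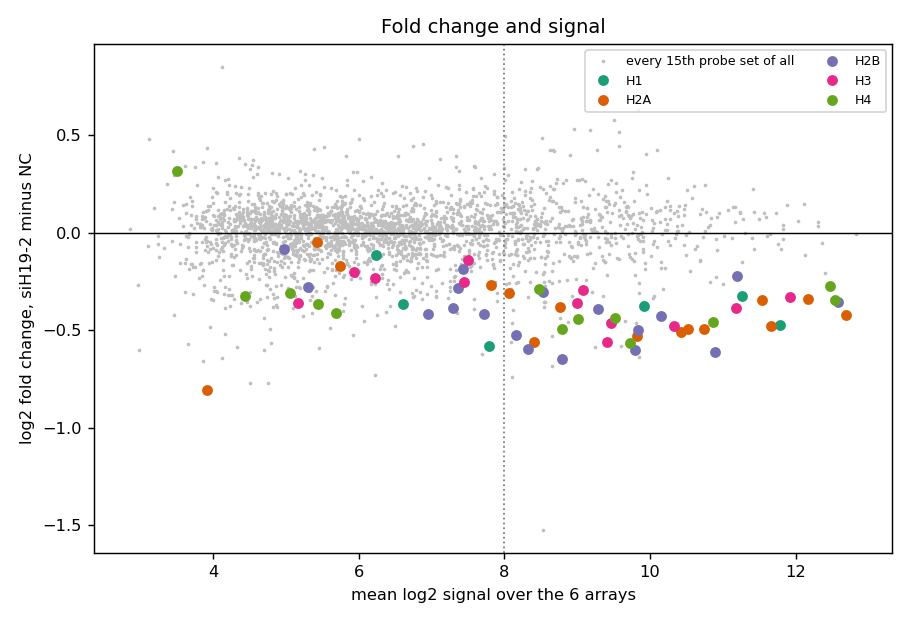
Log2 fold change, siH19-2 minus NC, against the mean log2 signal over the 6 arrays, with the histone genes coloured by class and every 15th of all probe sets in grey. To the right of the dotted line at 8, all 40 histone genes lie below 0, between -0.65 and -0.22.

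Linker histones (H1) bind the DNA between nucleosomes and compact the fibre. Of the 6 genes, 4 fell, and the median fold change of the class was -0.37. HIST1H1D, a linker histone of somatic cells, had log2 signals of 7.52, 7.48 and 7.51 in siH19-2 arrays, against 8.22, 8.09 and 7.93 in NC arrays. HIST1H1D fell by 0.58 in log2 (standard error 0.078, adjusted p = 0.0159), with the siH19-2 arrays close together and all below the NC arrays. HIST1H1E, also somatic, had 11.57, 11.67 and 11.40 in siH19-2 arrays, against 12.03, 12.04 and 12.00 in NC arrays. HIST1H1E fell by 0.48 (standard error 0.071, adjusted p = 0.0223), and siH19-2 replicate 3 was its lowest array. HIST1H1C, a linker histone that is also made in cells that do not divide, had 9.73, 9.74 and 9.70 in siH19-2 arrays, against 10.16, 10.04 and 10.10 in NC arrays. HIST1H1C fell by 0.38 (standard error 0.044, adjusted p = 0.0102), again without overlap. HIST1H1B had 11.13, 11.20 and 10.99 in siH19-2 arrays, against 11.45, 11.44 and 11.41 in NC arrays. HIST1H1B fell by 0.33 (standard error 0.060, adjusted p = 0.0397), and its NC arrays were the closer together. HIST1H1T, known from the testis, had 6.40, 6.52 and 6.36 in siH19-2 arrays, against 6.91, 6.68 and 6.78 in NC arrays. The groups were apart, but its fold change of -0.36 missed the threshold (adjusted p = 0.0533). HIST1H1A had 6.21, 6.30 and 6.01 in siH19-2 arrays, against 6.35, 6.21 and 6.30 in NC arrays. These overlapped, with a fold change of -0.12 and a 95% confidence interval between -0.32 and 0.09.

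Histone H2A pairs with H2B on the outer faces of the nucleosome. Of the 15 H2A genes 11 fell, and in 13 of them the arrays of the groups did not overlap. The class had a median fold change of -0.42. HIST1H2AK had log2 signals of 8.24, 8.09 and 8.03 in siH19-2 arrays, against 8.64, 8.65 and 8.75 in NC arrays. HIST1H2AK fell by 0.56 in log2 (standard error 0.067, adjusted p = 0.0112), with a clear gap between the groups. HIST1H2AE had 9.58, 9.58 and 9.53 in siH19-2 arrays, against 10.12, 10.08 and 10.07 in NC arrays. HIST1H2AE fell by 0.53 (standard error 0.036), and its adjusted p of 0.00225 was the smallest of the 64 genes, as the arrays of each group lay close together. HIST1H2AL had 10.22, 10.24 and 10.06 in siH19-2 arrays, against 10.64, 10.74 and 10.67 in NC arrays. HIST1H2AL fell by 0.51 (standard error 0.061, adjusted p = 0.0115), and siH19-2 replicate 3 was the lowest. HIST2H2AB, outside the large cluster, had 10.51, 10.58 and 10.41 in siH19-2 arrays, against 11.07, 10.93 and 10.99 in NC arrays. HIST2H2AB fell by 0.50 (standard error 0.059, adjusted p = 0.0115), also with the lowest value in siH19-2 replicate 3. HIST1H2AJ, the H2A probe set with the brightest signal, had 12.56, 12.44 and 12.43 in siH19-2 arrays, against 12.92, 12.96 and 12.81 in NC arrays. HIST1H2AJ fell by 0.42 (standard error 0.058, adjusted p = 0.0170) without overlap. The other H2A genes that fell were HIST1H2AB, HIST1H2AI, HIST1H2AM, HIST1H2AC, HIST1H2AG and HIST1H2AH, with fold changes between -0.49 and -0.27.

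Fold changes nearest to 0 in H2A were those of HIST2H2AC and HIST1H2AA. HIST2H2AC had 5.51, 5.27 and 5.43 in siH19-2 arrays, against 5.52, 5.48 and 5.35 in NC arrays. These overlapped, with a fold change of -0.05 (95% confidence interval between -0.24 and 0.15) that was 0.02 without siH19-2 replicate 2. Centring on small nucleolar RNAs, which shifts all genes of an array alike, placed it at 0.06. HIST1H2AA, known from the testis, had 5.78, 5.45 and 5.75 in siH19-2 arrays, against 5.90, 5.79 and 5.81 in NC arrays. The arrays were just apart, and the fold change was -0.17 (adjusted p = 0.382). HIST1H2AD had the lowest fold change of all 64 genes, -0.81, but it was dim and its arrays scattered. Its log2 signals were 3.20, 3.10 and 4.23 in siH19-2 arrays, against 4.46, 4.39 and 4.10 in NC arrays. The third siH19-2 array overlapped the NC arrays, and the gene missed the threshold (standard error 0.31, adjusted p = 0.227). HIST3H2A had a fold change of -0.31 (adjusted p = 0.0766).

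The largest called falls of all 64 genes were among H2B, the partner of H2A. Of the 18 genes 9 fell, and the median fold change was -0.40. HIST1H2BL had log2 signals of 8.51, 8.57 and 8.34 in siH19-2 arrays, against 9.15, 9.07 and 9.14 in NC arrays. HIST1H2BL fell by 0.65 in log2 (standard error 0.067, adjusted p = 0.00752), which corresponds to 63.9% of the NC signal, and the groups were far apart. HIST1H2BF had 10.63, 10.69 and 10.44 in siH19-2 arrays, against 11.24, 11.19 and 11.15 in NC arrays. HIST1H2BF fell by 0.61 (standard error 0.072, adjusted p = 0.0108), with siH19-2 replicate 3 the lowest array. HIST1H2BG, whose promoter is shown above, had 9.52, 9.60 and 9.35 in siH19-2 arrays, against 10.16, 10.06 and 10.05 in NC arrays. HIST1H2BG fell by 0.60 (standard error 0.072, adjusted p = 0.0113) in the same order of arrays. HIST1H2BE had 8.06, 8.10 and 7.93 in siH19-2 arrays, against 8.71, 8.55 and 8.62 in NC arrays. HIST1H2BE fell by 0.60 (standard error 0.064, adjusted p = 0.00841), once more without overlap. HIST1H2BM, the H2B probe set with the brightest signal, had 12.42, 12.47 and 12.33 in siH19-2 arrays, against 12.79, 12.74 and 12.74 in NC arrays. HIST1H2BM fell by 0.35 (standard error 0.048, adjusted p = 0.0171), and its groups did not overlap either. HIST3H2BA, HIST1H2BC, HIST1H2BN and HIST1H2BJ also fell, with fold changes between -0.52 and -0.42.

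The other 9 H2B genes were below 0 but missed the threshold. HIST2H2BE had 7.37, 7.45 and 7.19 in siH19-2 arrays, against 7.59, 7.54 and 7.44 in NC arrays. The groups touched, and the fold change was -0.19 (adjusted p = 0.257). HIST1H2BA, known from the testis, had 4.99, 4.88 and 4.94 in siH19-2 arrays, against 5.13, 4.84 and 5.10 in NC arrays. These overlapped, with a fold change of -0.08 (95% confidence interval between -0.29 and 0.13), which the same shift of all genes placed at 0.03. HIST1H2BB, HIST1H2BH, HIST1H2BO, HIST3H2BB, HIST1H2BD, HIST1H2BI and HIST1H2BK had fold changes between -0.42 and -0.22, and HIST1H2BD and HIST1H2BI were the ones among them whose arrays overlapped.

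Histone H3, which carries many of the marks that regulate chromatin, had the fewest calls. Of the 12 genes 2 fell, whereas 9 were without overlap between the groups and the median fold change was -0.35. The median standard error of the class was 0.099, compared with 0.065 in H2A and 0.059 in H4. HIST1H3J had log2 signals of 9.24, 9.20 and 8.96 in siH19-2 arrays, against 9.81, 9.64 and 9.63 in NC arrays. HIST1H3J fell by 0.56 in log2 (standard error 0.093, adjusted p = 0.0299), with siH19-2 replicate 3 the lowest array. HIST1H3D had 11.03, 11.01 and 10.92 in siH19-2 arrays, against 11.49, 11.31 and 11.33 in NC arrays. HIST1H3D fell by 0.39 (standard error 0.062, adjusted p = 0.0267) without overlap, and NC replicate 1 was the highest array. HIST1H3I, the H3 probe set with the brightest signal, had 11.78, 11.90 and 11.61 in siH19-2 arrays, against 12.11, 12.11 and 12.05 in NC arrays. The groups were apart, but the siH19-2 arrays scattered, and the fold change of -0.33 missed the threshold (adjusted p = 0.0769). HIST1H3B showed the same scatter more strongly. It had 9.42, 9.38 and 8.91 in siH19-2 arrays, against 9.80, 9.59 and 9.71 in NC arrays, with a fold change of -0.46 (standard error 0.14, adjusted p = 0.153). HIST1H3C had 7.54, 7.49 and 7.26 in siH19-2 arrays, against 7.58, 7.58 and 7.55 in NC arrays. The groups were separated by a narrow gap, and the fold change was -0.14 (adjusted p = 0.371). HIST1H3E had 6.04, 5.79 and 5.66 in siH19-2 arrays, against 6.06, 5.95 and 6.09 in NC arrays. The arrays overlapped, and the fold change was -0.20 (adjusted p = 0.345). HIST2H3DP1, HIST1H3G, HIST1H3H, HIST1H3A, HIST1H3F and the testis gene HIST3H3 had fold changes between -0.48 and -0.23, and none of them passed the test.

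Histone H4 pairs with H3 at the centre of the nucleosome, and 9 of its 13 genes fell, with a median fold change of -0.37. HIST1H4D had log2 signals of 9.57, 9.49 and 9.26 in siH19-2 arrays, against 10.11, 10.03 and 9.88 in NC arrays. HIST1H4D fell by 0.57 in log2 (standard error 0.098, adjusted p = 0.0343), although both groups were spread. HIST1H4L had 8.60, 8.60 and 8.42 in siH19-2 arrays, against 9.05, 9.06 and 9.002 in NC arrays. HIST1H4L fell by 0.49 (standard error 0.059, adjusted p = 0.0115), and siH19-2 replicate 3 was the lowest array. HIST1H4H had 10.68, 10.66 and 10.58 in siH19-2 arrays, against 11.12, 11.07 and 11.10 in NC arrays. HIST1H4H fell by 0.46 (standard error 0.041, adjusted p = 0.00508), with both groups tight. HIST1H4A had 8.80, 8.79 and 8.79 in siH19-2 arrays, against 9.25, 9.18 and 9.28 in NC arrays. HIST1H4A fell by 0.44 (standard error 0.040, adjusted p = 0.00494), and its siH19-2 arrays were nearly equal. HIST1H4E, the H4 probe set with the brightest signal, had 12.36, 12.39 and 12.36 in siH19-2 arrays, against 12.73, 12.72 and 12.69 in NC arrays. HIST1H4E fell by 0.34 (standard error 0.034, adjusted p = 0.00643), again with tight groups. HIST4H4 and HIST1H4F also fell, with fold changes of -0.44 and -0.41.

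Among the H4 genes that fell, HIST1H4C and HIST1H4B changed least. HIST1H4C had 12.29, 12.31 and 12.38 in siH19-2 arrays, against 12.62, 12.56 and 12.62 in NC arrays. HIST1H4C fell by 0.28 (standard error 0.040, adjusted p = 0.0198), and here siH19-2 replicate 3 was the highest of its group. HIST1H4B had 8.32, 8.35 and 8.32 in siH19-2 arrays, against 8.72, 8.54 and 8.59 in NC arrays. HIST1H4B fell by 0.29 (standard error 0.055, adjusted p = 0.0424) without overlap. HIST1H4J was the gene above 0, with a dim probe set. Its log2 signals were 3.68, 3.72 and 3.57 in siH19-2 arrays, against 3.38, 2.93 and 3.70 in NC arrays. The NC arrays scattered across the siH19-2 arrays, and the fold change of 0.32 had a 95% confidence interval between -0.15 and 0.78. HIST1H4I, HIST1H4K and HIST1H4G had fold changes between -0.37 and -0.31 and missed the threshold.

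**Figure D3:**
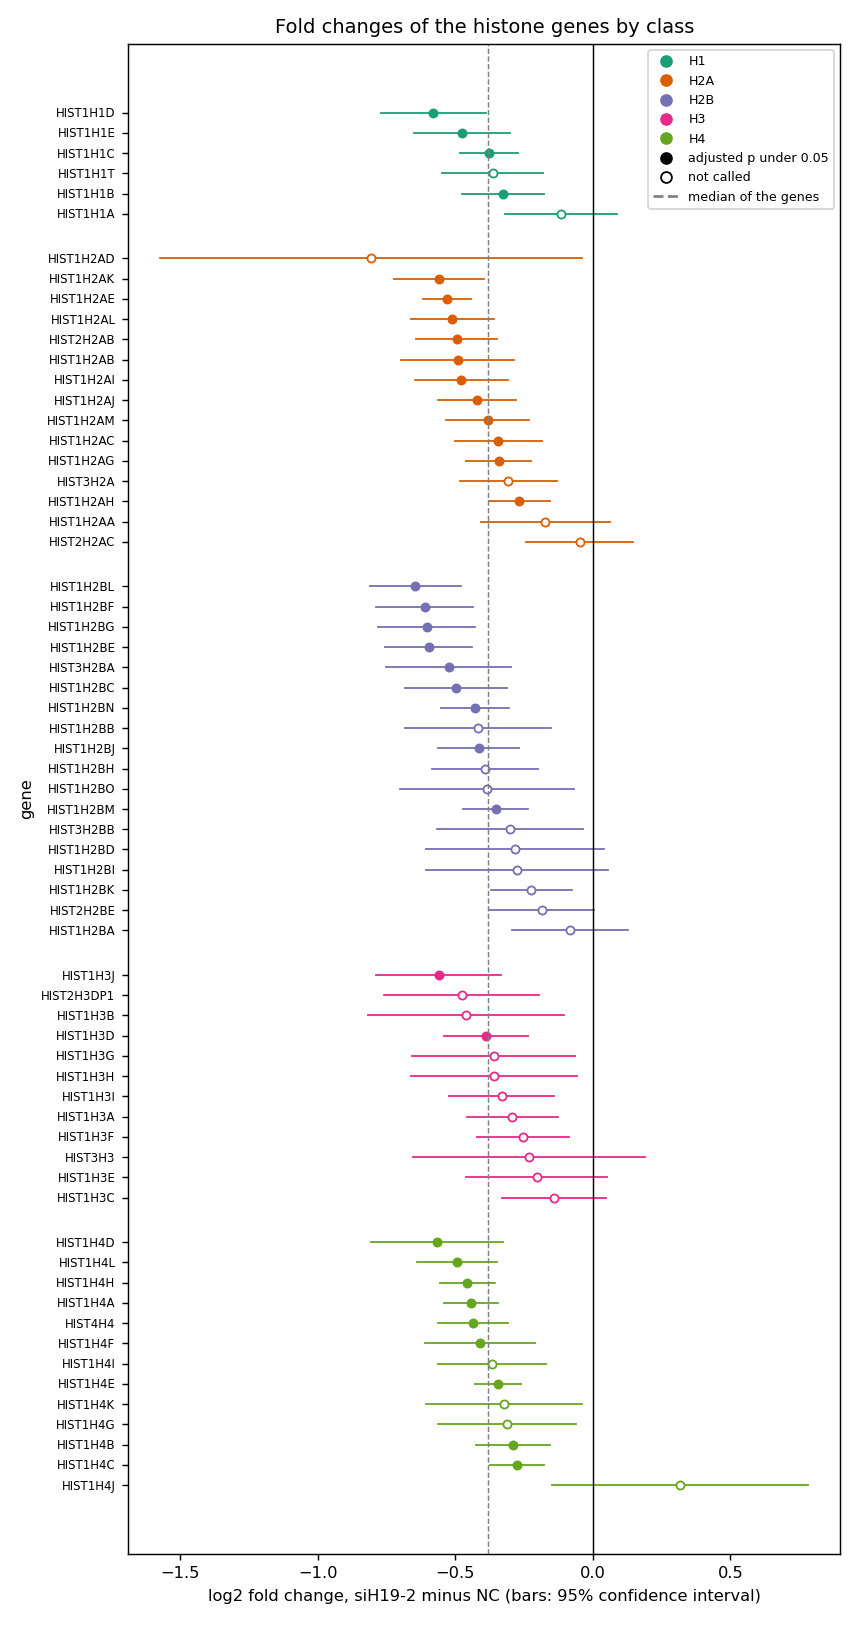
Log2 fold change, siH19-2 minus NC, of each histone gene with its 95% confidence interval, grouped by class and sorted within it, with filled points at an adjusted p under 0.05. The dashed line at -0.38 is the median of the 64 genes, which lies within the interval of 48 of them.

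The fold changes varied between genes. The 95% confidence interval contained the median of -0.38 for 48 genes and lay wholly below it for 7, which were HIST1H1D, HIST1H2AK, HIST1H2AE, HIST1H2BL, HIST1H2BF, HIST1H2BG and HIST1H2BE. It lay wholly above the median for 9, which were HIST1H1A, HIST1H2AH, HIST2H2AC, HIST1H2BK, HIST2H2BE, HIST1H2BA, HIST1H3C, HIST1H4C and HIST1H4J. The standard deviation of the fold changes over the 64 genes was 0.17, and their median standard error was 0.074. Genes of a class can be alike in sequence, and which probes their probe sets share was not tested. The genes were therefore not taken as independent measurements, and the assignment of a fall to 1 copy is uncertain.

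A group of histone genes is known to give polyadenylated transcripts in addition, as after cells leave the cycle. All 8 such genes were below 0, with a median fold change of -0.36, and 5 fell. These were HIST4H4, HIST1H1C, HIST1H2AC, HIST1H2BC and HIST1H2BJ, whereas HIST1H2BD, HIST2H2BE and HIST1H2BK missed the threshold. The other 56 genes had a median of -0.38, and 30 of them fell. The 4 genes known from the testis, HIST1H1T, HIST1H2AA, HIST1H2BA and HIST3H3, had a median of -0.20, with 0 calls in limma or by the methods' t-test and 1 lower at an unadjusted p under 0.05, and all had a mean log2 signal below 8.

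Falls were counted in each cluster. In HIST1, 32 of 55 genes fell, with a median fold change of -0.38. In HIST2 the count was 1 of 4 with a median of -0.33, in HIST3 1 of 4 with a median of -0.30, and HIST4H4, the gene of HIST4, fell by 0.44. The call in HIST3 was that of HIST3H2BA, an annotated pseudogene whose call was lost in all 6 fits with an array left out, and no protein-coding gene of HIST3 was called. Genes of HIST1 were split where at least 5 other measured protein-coding genes lay between neighbours. This gave a pair of stretches with 9 such genes between them. Smaller gaps, like that of 4 such genes before HIST1H2BL, were left within a stretch. The stretch from HIST1H2AA to HIST1H4H held 34 histone genes, of which 18 fell, and the stretch from HIST1H2BJ to HIST1H2BO held 21, of which 14 fell. Both had a median of -0.38. The other genes of the region, in the gene order of RefSeq, were measured beside them. None of 18 protein-coding genes within the span fell in limma or by the methods' t-test, against 2.63% and 2.21% of all transcripts. With shares this low, 0 falls among 18 genes does not set them apart. At an unadjusted p under 0.05, 0 were lower and 7 higher, and for this p no share over all transcripts is given. The median fold change of the 18 genes was 0.080, against 0.016 over all transcripts. TRIM38, a ubiquitin ligase gene, had log2 signals of 7.94, 7.84 and 7.94 in siH19-2 arrays, against 7.58, 7.63 and 7.66 in NC arrays, and rose by 0.28 (adjusted p = 0.0272). ZNF184, a zinc finger gene, had 7.67, 7.53 and 7.41 in siH19-2 arrays, against 7.13, 7.18 and 7.13 in NC arrays, and rose by 0.39 (adjusted p = 0.0367). Both were without overlap, and each kept its call in 1 of the 6 fits with an array left out. The span also holds tRNA genes, whose short RNAs carry amino acids to the ribosome. Of the 9 measured, 8 were below 0, with a median fold change of -0.32 and a range between -0.53 and 0.05. TRQ-CTG6-1 fell by 0.39 (adjusted p = 0.0353), a call that held in 1 of those 6 fits. It was the single fall among all 46 measured genes other than histone genes in the span (2.17%). At an unadjusted p under 0.05, 6 of the tRNA genes were lower and 0 higher. For tRNA genes outside the span no counts are given, and whether the lower values are particular to the span was not tested. TRQ-CTG2-1 and TRS-AGA3-1 had fold changes of -0.53 and -0.53 and missed the threshold (adjusted p = 0.0699 and 0.0762).

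**Figure D4:**
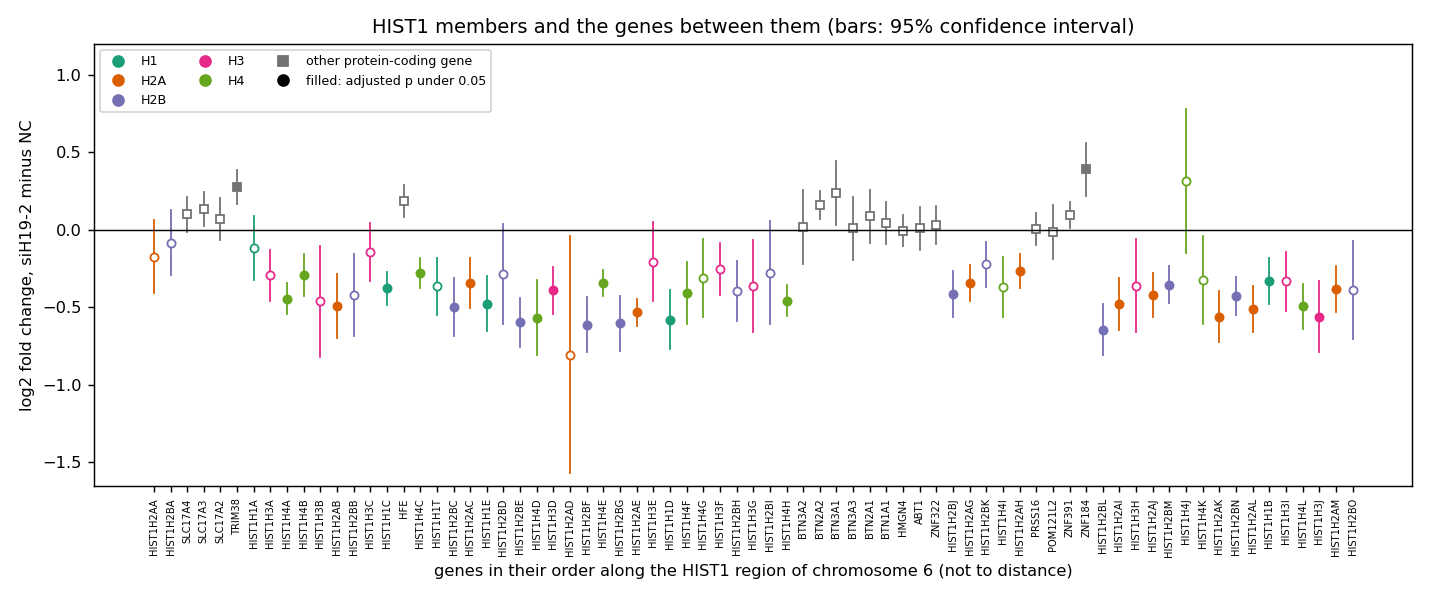
Log2 fold change, siH19-2 minus NC, with 95% confidence intervals, of the HIST1 genes (circles, by class) and of the other protein-coding genes between them (grey squares), in their order along chromosome 6 and not to distance. Apart from HIST1H4J every histone gene lies below 0, while the 18 other genes lie between -0.01 and 0.39.

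Many H2A and H2B genes stand head to head and share the DNA between their starts. Of 11 such pairs, with starts 194 to 248 bases apart, both genes fell in 6, 1 gene fell in 2 and neither in 3. In all 11 both fold changes were below 0, which any pairing would give, since all 15 H2A and all 18 H2B genes were below 0. HIST1H2AE and HIST1H2BG fell by 0.53 and 0.60, and HIST1H2AI and HIST1H2BL by 0.48 and 0.65. Near 0 lay HIST1H2AA and HIST1H2BA, at -0.17 and -0.08, and HIST2H2AC and HIST2H2BE, at -0.05 and -0.19. The median difference within a pair was 0.089 in size, and the standard errors of these differences, taken as if both genes were independent, ran between 0.075 and 0.32. Differences between unpaired H2A and H2B genes were not measured beside them, and whether pairs moved together was not tested.

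Of the listed genes that drive, process, translate or degrade histone transcripts, NPAT alone passed in limma. Calls were rare over all transcripts too, of which 2.63% fell and 2.64% rose, so the low count does not set these lists apart. Of 5 genes for histone gene transcription, NPAT fell and the median fold change was 0.046. NPAT, the coactivator named above, had log2 signals of 8.39, 8.33 and 8.46 in siH19-2 arrays, against 8.66, 8.60 and 8.70 in NC arrays. NPAT fell by 0.26 (standard error 0.049, adjusted p = 0.0427) without overlap, a call that was lost in all 6 fits with an array left out. CASP8AP2, which is needed for the nuclear bodies of histone genes, had a fold change of 0.01, HINFP of 0.13 and POU2F1 of 0.05, and none passed the test. Of 11 measured genes for processing of the transcripts none passed in limma, 2 were lower and 1 higher at an unadjusted p under 0.05, 1 was lower by the methods' t-test, and the median was -0.03. RNU7-1, the RNA of the U7 particle, was listed but had no probe set under that name. SLBP had 8.98, 8.97 and 8.99 in siH19-2 arrays, against 9.09, 9.10 and 9.14 in NC arrays. The groups were apart, but the fold change of -0.13 missed the threshold (adjusted p = 0.0947). CSTF2, a subunit of the cleavage machinery, had a fold change of -0.18 (adjusted p = 0.0637). None of 7 genes for translation and decay of histone transcripts passed either test, 1 was higher at an unadjusted p under 0.05, and the median was 0.016.

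Cyclin E, which with CDK2 acts at the start of S phase and is known to phosphorylate NPAT, was lower for both of its genes. CCNE1 had log2 signals of 8.51, 8.53 and 8.63 in siH19-2 arrays, against 9.01, 9.002 and 9.02 in NC arrays. CCNE1 fell by 0.46 (standard error 0.044, adjusted p = 0.00574), kept its call in all 6 fits with an array left out, and had closely placed NC arrays. CCNE2 had 7.71, 7.71 and 7.72 in siH19-2 arrays, against 8.04, 8.004 and 8.08 in NC arrays. CCNE2 fell by 0.33 (standard error 0.036, adjusted p = 0.00871), and its call was lost without NC replicate 1 (adjusted p = 0.0551). These were the 2 of 27 genes of the G1/S transition and DNA replication (7.41%) that passed in limma, and the median of the list was 0.01. Over all transcripts 2.63% fell, and among those with a mean log2 signal above 8 the share was 7.91%. The NC means of the list ran between 8.04 and 11.24, so its count was near that of transcripts of like signal. At an unadjusted p under 0.05, 6 genes of the list were lower and 4 higher, and by the methods' t-test 3 were lower and 1 higher. CDK2 had a fold change of 0.15 (adjusted p = 0.0889), and PCNA, the sliding clamp of the DNA polymerases, one of -0.05 (adjusted p = 0.506). The genes MCM2 to MCM7 of the replicative helicase had fold changes between -0.01 and 0.12, none of them called.

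**Figure D5:**
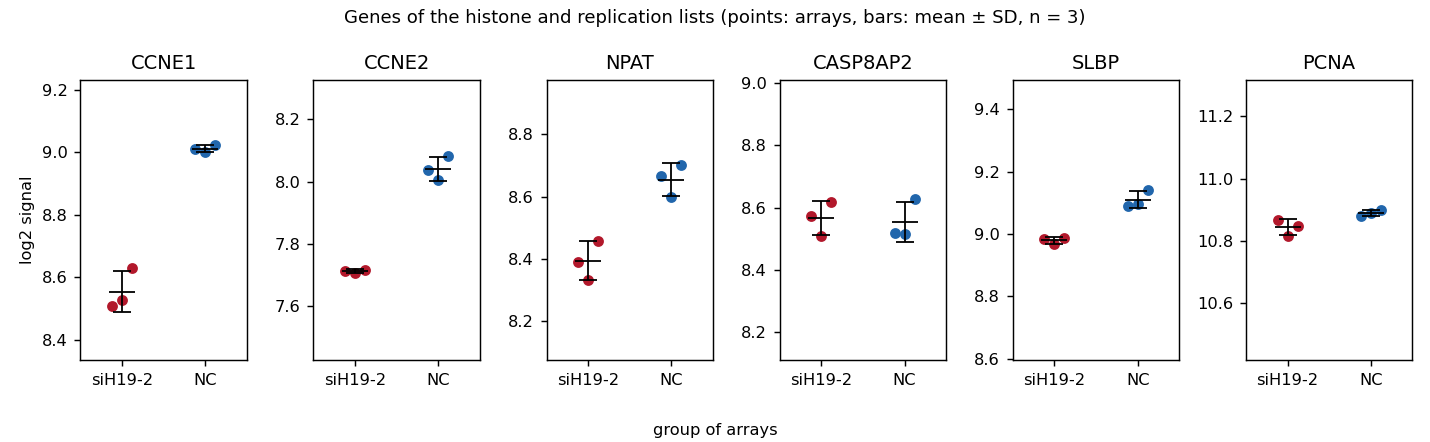
Log2 signal of 6 genes of the histone and replication lists in each array, with siH19-2 left of NC, points for arrays and bars for the mean ± SD of 3 arrays; each panel has its own range of the log2 axis. CCNE1, CCNE2, NPAT, SLBP and PCNA were without overlap between the groups, and of these CCNE1, CCNE2 and NPAT passed the test.

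Among histones made outside S phase and the carriers of histones, 1 gene rose and 1 fell in limma. Over all transcripts 2.64% rose and 2.63% fell. Of 11 measured variant genes none fell and 1 rose in limma (3 lower and 2 higher at an unadjusted p under 0.05, 1 lower and 1 higher by the methods' t-test), with a median fold change of -0.05. H3F3A was listed but had no probe set under that name. H2AFY2, a macroH2A gene, had 8.86, 8.87 and 8.89 in siH19-2 arrays, against 8.68, 8.72 and 8.69 in NC arrays. H2AFY2 rose by 0.18 (adjusted p = 0.0388) without overlap and lost its call in all 6 fits with an array left out. H3F3B, which encodes the H3 variant of transcribed chromatin, had a fold change of -0.14 (adjusted p = 0.0727), and H2AFV one of -0.18 (adjusted p = 0.0624). Among 13 chaperone genes, NAP1L1, a carrier of H2A and H2B, fell by 0.19 (adjusted p = 0.0473), a call lost in all 6 of those fits, and the median was 0.095. In this list 1 gene was lower and 6 higher at an unadjusted p under 0.05, and 1 lower and 1 higher by the methods' t-test. CHAF1A and CHAF1B, subunits of the factor that loads H3 and H4 on new DNA, had fold changes of 0.14 and 0.15 and missed the threshold.

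Other RNAs without a poly(A) tail were set beside the histone genes, because transcripts of this kind share that feature of their ends. Of 11 listed genes 5 were measured, and RN7SK, RN7SL1, RN7SL2, RNY1, RNY3 and VTRNA1-1 had no probe set under those names. Of the 5, VTRNA1-3, a vault RNA, fell, and the median fold change was -0.11. VTRNA1-3 had log2 signals of 7.11, 6.85 and 6.93 in siH19-2 arrays, against 7.49, 7.58 and 7.49 in NC arrays. VTRNA1-3 fell by 0.56 (standard error 0.075, adjusted p = 0.0162) without overlap and kept its call in 1 of the 6 fits with an array left out. VTRNA1-2, another vault RNA, had 4.39, 4.46 and 4.09 in siH19-2 arrays, against 4.61, 4.65 and 4.804 in NC arrays. The groups were apart, but the fold change of -0.38 missed the threshold (standard error 0.11, adjusted p = 0.125). RPPH1 and RMRP, the RNA parts of ribonucleases, and TERC, that of telomerase, had fold changes of -0.11, -0.06 and -0.03. All 5 genes were thus below 0, with 2 lower and 0 higher at an unadjusted p under 0.05. Among 333 small nucleolar RNAs, 7 fell (2.10%, against 2.63% of all transcripts) and 2 rose, and their median was -0.05. The part of RNA recovery, of labelling or of cell cycle stage in the lower histone signals was not tested.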

How the data were processed

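Log2 signals of 6 Clariom D arrays were taken as the authors deposited them, after normalization between arrays, 1 value for each gene. For this step limma and, in the section on statistics, JMP are named, and which gave these values is not given in the sources used here. The authors' deposited table of gene names also holds group means, used here to check the join, and columns of their own comparison, which were not used. No file holds a genome build for the array. Samples were grouped by their labels. In R 4.3.3, limma 3.58.1 (lmFit, eBayes; 4 residual and 1.92 prior degrees of freedom) was fitted to siH19-2 minus NC over 39261 of 39334 probe sets, two-sided, with Benjamini-Hochberg adjustment, no filter, and 0.05 as the threshold. The fit was tested on simulated data. Tables and figures were made with Python 3.11.15, pandas 2.3.3, scipy 1.17.1 and matplotlib 3.10.9. RefSeq promoters (GRCh38.p14) were matched by gene ID. The genes, lists and tests were chosen with earlier results of these data known. Array values are given for the 4 largest called falls without overlap of each class, the brightest probe set of each class, the 2 fold changes nearest to 0, all H1 genes and HIST1H2BL; of each other list up to 4 genes with the smallest p could be named. HIST1H2AD, HIST1H3B, HIST1H4J, CASP8AP2, PCNA, TERC, EPCAM, TRIM38, ZNF184, TRQ-CTG6-1 and the genes MCM2 to MCM7 were included with their values in view. The number of arrays limits the precision. Alternatives were another prior, a filter on dim probe sets, the methods' t-test, other scalings, adjustments and thresholds, a replicate block, and leaving out single arrays.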

Additional observations from a re-analysis of the deposited data

How the results depend on the processing

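Of 884 values of single histone genes under the alternatives that give a value, 588 kept direction and side of the threshold, 270 kept the direction but lost the call, 23 gained one and 3 had the other sign. The 3 were HIST2H2AC at 0.061 and HIST1H2BA at 0.026 with arrays centred on small nucleolar RNAs, a shift common to all genes that moves values near 0 across it, and HIST2H2AC at 0.020 without siH19-2 replicate 2, in a range from -0.10 to 0.020 over the arrays left out. No setting gave a histone gene called higher. A change of sign was possible only under cyclic loess, under the centring and in the fits with an array left out. The remaining alternatives keep each fold change of the main fit, so their kept directions were fixed in advance. Cyclic loess gave 36 genes that fell, with 1131 transcripts lower and 783 higher. With arrays centred on small nucleolar RNAs 9 genes fell, all in HIST1 and none in HIST2 to HIST4 (0). These were 1 of H1, 3 of H2A, 4 of H2B, 0 of H3 and 1 of H4. The median of the histone genes was -0.27, and 207 of all transcripts were lower and 528 higher. Since this scaling shifts all fold changes alike, the median of the histone genes minus that of all transcripts was bound to stay at -0.40. An intensity trend with a robust prior gave 43, with 5 of H3 and 5 in HIST2 to HIST4, and 1525 transcripts lower and 1924 higher. Above the median signal, 43 of 52 fell, with 6 of H3 and 5 in HIST2 to HIST4, and 1730 transcripts were lower and 2328 higher. The methods' t-test with Benjamini-Hochberg adjustment gave 22, with 2 of H1, 7 of H2A, 0 of H3 and 20 in HIST1, and 869 transcripts lower and 1320 higher. An adjusted p under 0.01 gave 6, with 0 of H1, 1 of H2A, 2 of H2B, 0 of H3 and 3 of H4, all 6 in HIST1 and 0 in HIST2 to HIST4, and 318 lower and 199 higher transcripts. Bonferroni-Holm gave 0 in every class and cluster, with 37 lower and 6 higher transcripts, and 0 genes fell by more than 1 at an unadjusted p under 0.05, whereas 53 were lower at that p alone. With an array left out, 7 to 25 genes fell and 0 rose, with 0 to 3 of H1, 1 to 7 of H2A, 1 to 8 of H2B, 0 to 2 of H3, 3 to 7 of H4, 7 to 22 in HIST1 and 0 to 3 in HIST2 to HIST4, medians from -0.41 to -0.33, and 292 to 648 lower and 172 to 430 higher transcripts. With the replicate block, 0 histone genes of any class or cluster were called, with 62 transcripts lower and 12 higher, and the median stayed at -0.38. Residuals of same-numbered arrays correlated at 0.0060, 0.0099 and 0.0052 over all transcripts. Whether these arrays shared a culture or day is not stated in the sources used here and was not tested for the histone genes. No pairing was assumed in the main fit. Without the 2 annotated pseudogenes, chosen after seeing the data, 34 genes fell. The causes of these differences were not tested, apart from the fewer arrays, fewer probe sets and stricter rules that the settings themselves impose. Leaving out genes with identical proteins was not run, because no protein sequences were used here.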
